A study of Mus musculus with 12 samples.

Results

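Notch ligands (Jag1, Jag2, Dll1), receptors (Notch1, Notch2, Notch3), the receptor-modifying enzyme Lfng and the transcriptional targets Hes1, Hey1 and Heyl were followed across mouse liver cells grown flat or as spheroids. The 10 genes were taken by symbol from a table of raw RNA-seq counts of 53599 genes. All 10 were found there, and 9 of them were among the 14798 genes with enough counts to be tested. Heyl was not: it had 2 and 1 counts in hepCLiP 2D replicates 1 and 2, 2 counts in bilCLiP 3D replicate 2, and 0 in the other libraries.

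The series holds 12 bulk RNA-seq libraries in 4 groups of 3. CLiPs are chemically induced liver progenitors, proliferating cells obtained by growing mature liver cells with small molecules; hepCLiPs were derived from hepatocytes and bilCLiPs from biliary epithelial cells. In the 2D groups, the cells grew on collagen-coated plates in small hepatocyte medium (SHM) supplemented with 10% FBS (serum) and YAC, which is Y-27632 (blocks ROCK), A83-01 (blocks TGF-beta receptors) and CHIR99021 (blocks GSK3). In the 3D groups, cells of the same lines formed spheroids over 3 days in that medium, inhibitors included, but lacking serum, and then stayed in suspension for 6 to 8 days with the inhibitors and oncostatin M, an interleukin 6 family cytokine, at 10 ng/ml. A difference between 3D and 2D carries the change of geometry, serum, cytokine and culture time together, and these cannot be told apart. The cells carried a fluorescent reporter at the Rosa locus, RosaConfetti in hepCLiP replicates 1 and 3 of each culture and RosaYFP in hepCLiP replicate 2 and all bilCLiP libraries. Where the replicates came from (separate animals or cultures) is not stated. HepCLiP replicate 2 differs in reporter from replicates 1 and 3, so the hepCLiP replicates are not all repeats of 1 line. The labels do not settle this for the bilCLiP replicates. The p-values measure the spread between these samples, which may in part be technical.

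Notch signalling passes between touching cells. A Jagged or Delta-like ligand on one cell binds a Notch receptor on its neighbour, ADAM proteases and then gamma-secretase cut the receptor, and the freed intracellular domain joins the DNA-binding protein RBPJ and Mastermind-like coactivators to switch on repressor genes of the Hes and Hey families. Fringe enzymes such as Lfng add a sugar to the extracellular part of the receptor and shift its response between Delta-like and Jagged ligands. In the liver, Jag1 and Notch2 are best known for bile duct formation, and loss of either in people causes Alagille syndrome, in which bile ducts are too few.

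With culture in 3D, the ligand Dll1 rose steeply while Jag1, Lfng, Hes1 and Hey1 fell, in hepCLiPs and in bilCLiPs. In each origin, 4 of the 9 tested genes were called lower and 1 higher, and the other 4, namely Jag2, Notch1, Notch2 and Notch3, were not called. A gene was called at an adjusted p (edgeR quasi-likelihood test, Benjamini-Hochberg over all tested genes) under 0.05. Among all 14798 tested genes, 17.9% were called lower and 16.9% higher in hepCLiPs, and 14.5% and 15.8% in bilCLiPs. The share called lower among the tested Notch genes, 44.4%, was above that background, and the share called higher, 11.1%, was below it. The Notch genes were chosen with earlier results of these data known. The shares, and the medians that follow, are therefore a description and no test of the pathway. The median log2 fold change was -1.42 over the 9 genes in hepCLiPs and -1.16 in bilCLiPs, beside medians of -0.06 and -0.00 over all tested genes. In bulk RNA, fewer cells of a type and less RNA per cell cannot be told apart, and this holds for each of these changes.

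**Figure D1:**
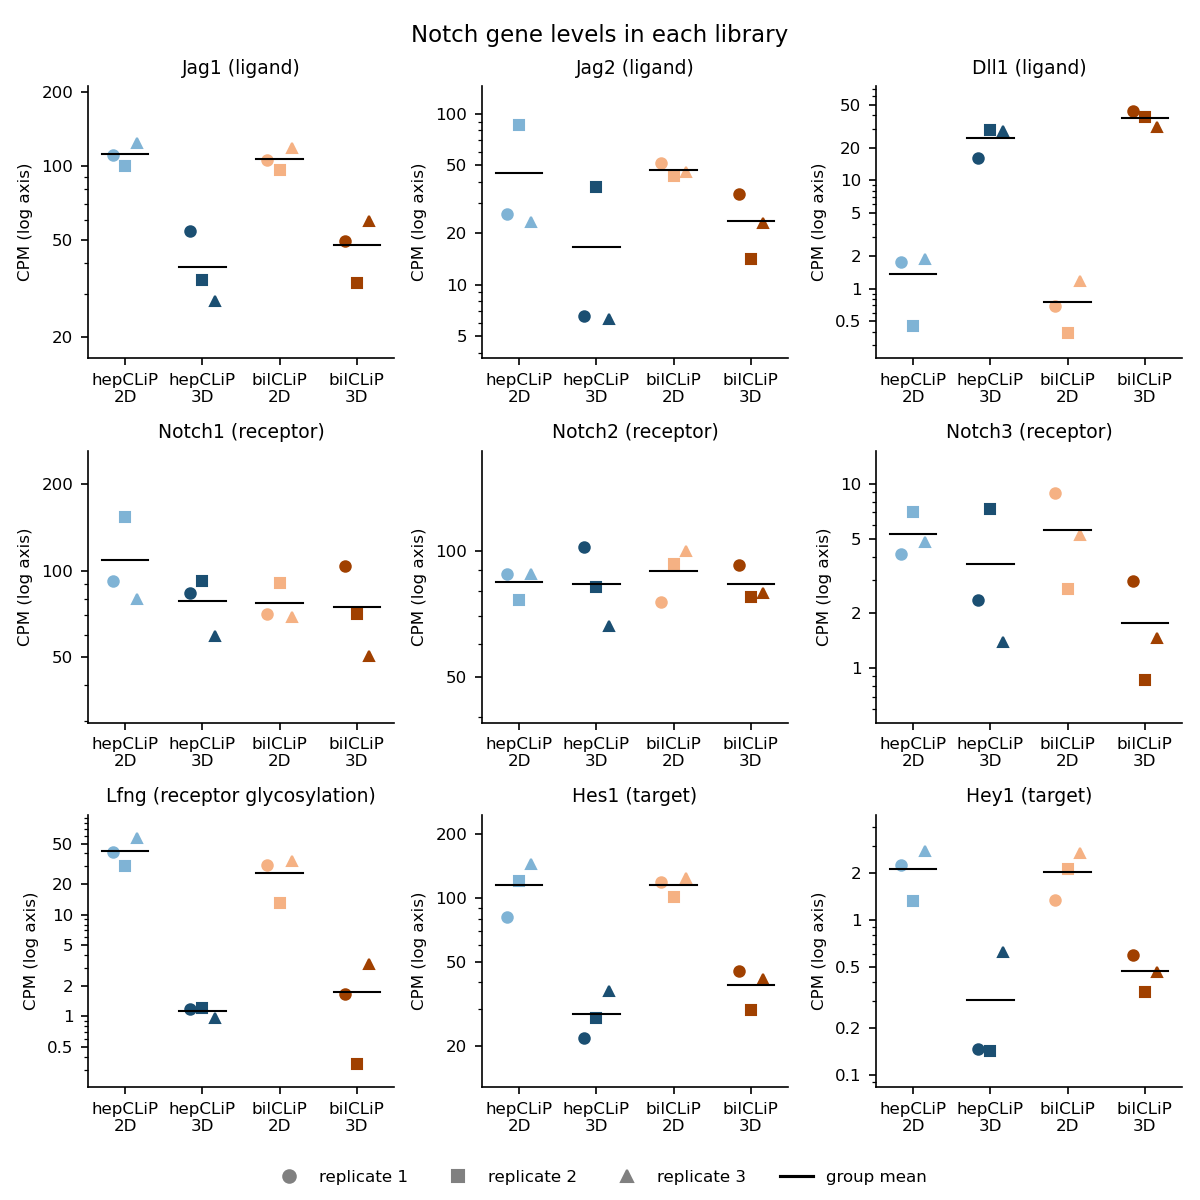
Levels of 9 Notch genes in each library, in CPM on a log axis, by group (hepCLiP or bilCLiP, 2D or 3D); each point is a library, its shape the replicate number, and the bar is the group mean (n = 3). Heyl is left out because it was near 0 throughout. Dll1 was higher in all 6 spheroid libraries than in any 2D library, Jag1, Lfng, Hes1 and Hey1 were lower, and Notch1 and Notch2 overlapped between cultures.

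Total counts ran from 16142365 to 21253382 per library, and levels are given as CPM (counts scaled to library size) after TMM scaling, which trims the genes that differ most. Log2 CPM values correlated at 0.944 to 0.969 within groups and at 0.74 to 0.864 between cultures. Titles set the groups: 1 library titled hepCLiP 2D (replicate 3) carries a treatment tag for 3D, and all 3 titled bilCLiP 3D carry one for 2D. Correlations of that hepCLiP library were 0.944 to 0.953 within its titled group and 0.814 to 0.852 with the hepCLiP spheroids. Without it, the 5 Notch genes called in hepCLiPs were still called, with log2 fold changes of -1.44 for Jag1, 4.48 for Dll1, -4.98 for Lfng, -1.82 for Hes1 and -2.53 for Hey1. The 6 hepatocyte markers summed to 17400 to 43200 CPM in bilCLiP 3D and to 180 to 1040 CPM in bilCLiP 2D. They summed to 40800 to 51500 CPM in hepCLiP 3D and to 341 to 1610 CPM in hepCLiP 2D, and the 6 biliary markers to 3190 to 33300 CPM over all 12 libraries, so cells labelled hepatocyte-derived carried biliary markers too.

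Among the ligands, Dll1, a Delta-like ligand that activates Notch on the neighbouring cell, changed most. In hepCLiPs its level was 1.76, 0.455 and 1.90 CPM in 2D replicates 1 to 3 (38, 10 and 38 counts) and 16.3, 29.2 and 28.8 CPM in 3D. In bilCLiPs it was 0.689, 0.389 and 1.18 CPM in 2D (16, 10 and 26 counts) and 43.9, 38.7 and 31.3 CPM in 3D. No 3D library came near a 2D library: the lowest spheroid value, 16.3 CPM, stood against a highest 2D value of 1.90 CPM. The rise was 18.1-fold in hepCLiPs (log2 fold change 4.17 ± 0.52 SE, n = 3 per group, edgeR adjusted p = 0.000289). It was 50.4-fold in bilCLiPs (5.65 ± 0.56 SE, n = 3 per group, edgeR adjusted p = 0.000103). In the GENCODE M21 annotation, Dll1 shares 867 exonic bases with an antisense transcript, A930024N18Rik. Reads of that transcript and of Dll1 could not be told apart, since how the counting treated strand is not given in the sources used here.

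Jag1, the Jagged ligand linked to bile duct formation, fell. It stood at 110, 99.9 and 124 CPM in hepCLiP 2D and at 54.2, 34.1 and 28 CPM in hepCLiP 3D. In bilCLiPs it stood at 105, 95.6 and 118 CPM in 2D and at 49.5, 33.4 and 59.6 CPM in 3D. The 2D libraries of both origins lay close together, and every 3D library was lower than every 2D library. The log2 fold change was -1.52 ± 0.26 SE in hepCLiPs (2.86-fold lower, edgeR adjusted p = 0.00145) and -1.16 ± 0.26 SE in bilCLiPs (2.24-fold lower, edgeR adjusted p = 0.00654).

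Jag2, the other Jagged ligand, was not called in the fit without pairing, and 1 hepCLiP replicate was high in both cultures. Its levels were 25.9, 85.5 and 23.2 CPM in hepCLiP 2D and 6.52, 37.3 and 6.32 CPM in hepCLiP 3D. In bilCLiPs they were 51.6, 43.0 and 45.4 CPM in 2D and 33.9, 14.1 and 22.9 CPM in 3D, without overlap. Replicate 2, the RosaYFP replicate, held the highest hepCLiP value in 2D and in 3D, and its 3D value exceeded the 2D values of replicates 1 and 3. The log2 fold change was -1.42 ± 0.71 SE in hepCLiPs (edgeR adjusted p = 0.145) and -0.98 ± 0.70 SE in bilCLiPs (edgeR adjusted p = 0.321).

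Within each same-numbered pair of libraries Jag2 was lower in 3D, by log2 ratios of -1.99, -1.20 and -1.87 in hepCLiPs and -0.61, -1.61 and -0.99 in bilCLiPs. Blocking on the replicate number, Jag2 was called in both origins, at -1.66 ± 0.23 SE (edgeR adjusted p = 0.00117) and -1.06 ± 0.22 SE (edgeR adjusted p = 0.00738). That blocked fit called 24.7% of all tested genes lower in hepCLiPs and 21.5% in bilCLiPs, and the Notch genes called lower came to 5 and 6. With 1 library left out, the unblocked hepCLiP value ran from -0.55 (without hepCLiP 2D replicate 2, edgeR adjusted p = 0.583) to -2.80 (without hepCLiP 3D replicate 2, edgeR adjusted p = 0.00889), and the last was the single fit of these that called it. The bilCLiP value ran from -0.72 to -1.31 and was not called in any of them. Jag2 was called in hepCLiPs with total-count scaling (-2.02, edgeR adjusted p = 0.0349), and in both origins with the reporter genotype as a covariate (edgeR adjusted p = 0.00195 and 0.0235).

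**Figure D2:**
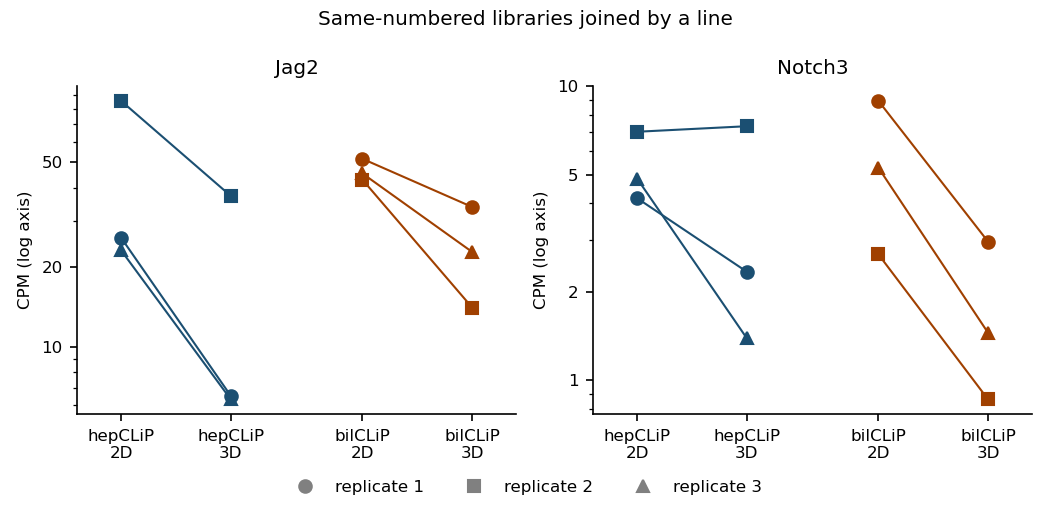
Levels of Jag2 and Notch3 in each library, in CPM on a log axis, with a line joining the same-numbered 2D and 3D libraries of hepCLiPs and bilCLiPs and a marker shape for each replicate. Jag2 falls along all 6 lines and hepCLiP replicate 2 lies above the other hepCLiP lines; Notch3 falls along the 3 bilCLiP lines and along 2 of the 3 hepCLiP lines.

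With Dll1 higher and Jag1 lower, the make-up of the ligand RNA differed between cultures. To set genes beside each other, CPM were divided by each gene's exon length in kilobases. That length merges the exons of all annotated transcripts and can exceed that of a single transcript. It was 14232 bases for Notch1 and 10782 for Notch2, so the order of genes on this scale depends on it. On that scale Jag1 had means of 19.1 CPM per kb in hepCLiP 2D and 6.66 in hepCLiP 3D, and Dll1 had means of 0.325 and 5.87. In bilCLiPs the Jag1 means were 18.3 CPM per kb in 2D and 8.15 in 3D, and the Dll1 means were 0.179 and 9. For each 100 units of Jag1 there were 0.629 to 2.21 units of Dll1 in hepCLiP 2D and 41.6 to 142 in hepCLiP 3D, and 0.561 to 1.38 in bilCLiP 2D and 72.5 to 160 in bilCLiP 3D. Dll1 made up 0.365 to 1.81% of the summed level of the 3 ligands in hepCLiP 2D and 27.4 to 54.5% in hepCLiP 3D. In bilCLiPs its share was 0.406 to 1.04% in 2D and 35.4 to 54.2% in 3D, so the ranges of the cultures were far apart in both origins. The summed ligand level ran from 23.0 to 29.5 CPM per kb in hepCLiP 2D and from 12.5 to 18.1 in hepCLiP 3D. In bilCLiPs the sums, 22.7 to 27.1 in 2D and 16.9 to 23.7 in 3D, overlapped. These shares are given as a description, with no test.

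**Figure D3:**
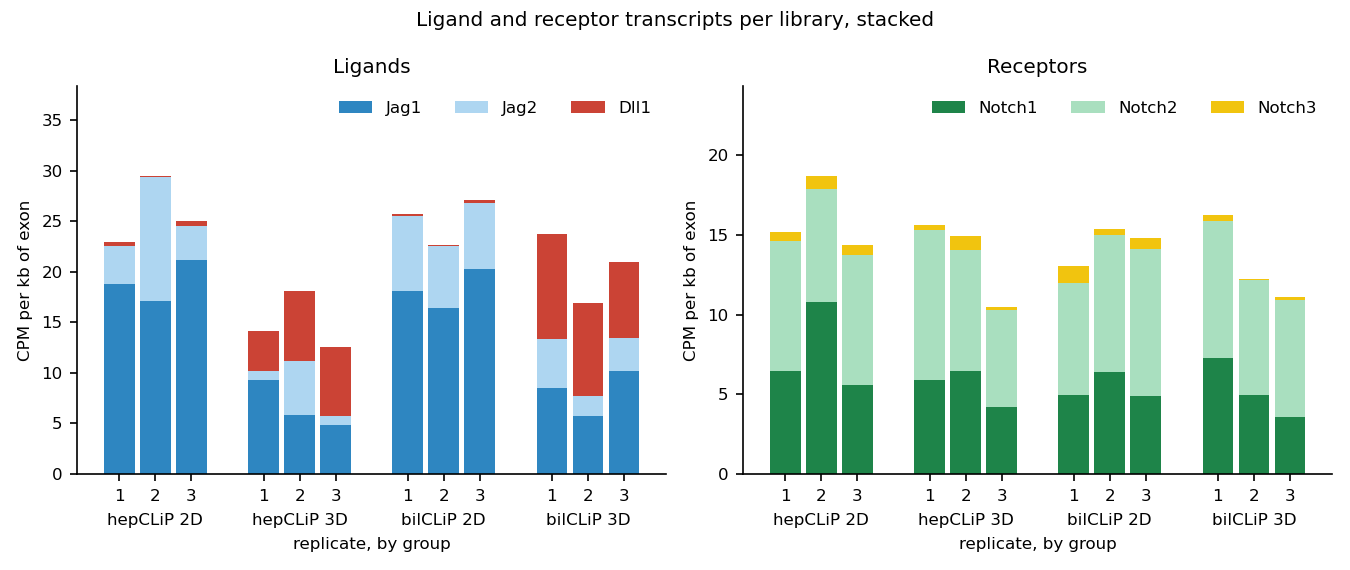
Make-up of the ligand and receptor RNA in each library, as stacked levels in CPM per kb of exon for Jag1, Jag2 and Dll1 and for Notch1, Notch2 and Notch3. The Dll1 part is at most 1.81% of the ligand sum in any 2D library and at least 27.4% in any spheroid library, while Notch1 and Notch2 make up most of the receptor sum in every library.

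None of the 3 receptor genes was called in either origin, and the estimated changes were smaller for Notch1 and Notch2 than for Notch3. Notch1, a widely used receptor, had 92.1, 154 and 79.6 CPM in hepCLiP 2D and 83.8, 92.4 and 59.5 CPM in hepCLiP 3D. In bilCLiPs Notch1 had 70.6, 91.0 and 69.2 CPM in 2D and 104, 70.7 and 50.5 CPM in 3D. The groups overlapped in both origins, and Notch1 was not called (log2 fold changes of -0.47 ± 0.31 SE, edgeR adjusted p = 0.259, and -0.04 ± 0.30 SE, edgeR adjusted p = 0.944).

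Notch2, the receptor tied to bile duct formation, had 88.1, 76.1 and 88.0 CPM in hepCLiP 2D and 102, 81.7 and 66.1 CPM in hepCLiP 3D. In bilCLiPs Notch2 had 75.5, 92.9 and 99.8 CPM in 2D and 92.4, 77.6 and 79.3 CPM in 3D. Its means lay between 83.1 and 89.4 CPM in all 4 groups, the narrowest spread of the tested Notch genes. The log2 fold changes were -0.02 ± 0.17 SE in hepCLiPs (edgeR adjusted p = 0.952) and -0.11 ± 0.17 SE in bilCLiPs (edgeR adjusted p = 0.679). Scaling to total counts in place of TMM, an alternative chosen after seeing the data, moved the median of all tested genes to -0.63 in hepCLiPs and -0.47 in bilCLiPs. Under it Notch1 was called lower in hepCLiPs (-1.05, edgeR adjusted p = 0.016) and Notch2 in both origins (-0.60, edgeR adjusted p = 0.0112, and -0.57, edgeR adjusted p = 0.0171). The Notch2 values lay close to those shifted medians.

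Notch3, best known as the receptor of vascular smooth muscle, was far lower. It had 4.16, 7 and 4.85 CPM in hepCLiP 2D, 2.34, 7.31 and 1.39 CPM in hepCLiP 3D, 8.91, 2.68 and 5.28 CPM in bilCLiP 2D and 2.96, 0.861 and 1.45 CPM in bilCLiP 3D. The groups overlapped, and it was not called in hepCLiPs (log2 fold change -0.54 ± 0.65 SE, edgeR adjusted p = 0.561) or in bilCLiPs (-1.68 ± 0.68 SE, edgeR adjusted p = 0.0841). In bilCLiPs it was lower in 3D in 3 of 3 pairs and was called with the replicate block (-1.69 ± 0.36 SE, edgeR adjusted p = 0.00797), by DESeq2 (adjusted p = 0.0361), and with the reporter genotype as a covariate (edgeR adjusted p = 0.0463). With 1 library left out, the bilCLiP value ran from -1.18 (without bilCLiP 2D replicate 1, edgeR adjusted p = 0.263) to -2.25, and it was called in 1 of these fits, the one without hepCLiP 3D replicate 2 (-1.68, edgeR adjusted p = 0.0459). The hepCLiP value ran from -0.14 to -1.51 (without hepCLiP 3D replicate 3 and 3D replicate 2) and was called in none. An antisense gene, Gm17276, shares 488 exonic bases with Notch3 and had at most 24 counts in any library.

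Per kilobase, mean receptor levels in the order hepCLiP 2D, hepCLiP 3D, bilCLiP 2D and bilCLiP 3D were 7.80, 7.71, 8.29 and 7.71 CPM per kb for Notch2. They were 7.63, 5.52, 5.41 and 5.27 for Notch1 and 0.66, 0.455, 0.696 and 0.217 for Notch3. The summed receptor level was 14.4 to 18.8 CPM per kb in hepCLiP 2D and 10.5 to 15.6 in hepCLiP 3D, and 13.1 to 15.3 in bilCLiP 2D and 11.1 to 16.2 in bilCLiP 3D. The ranges of the cultures overlapped in each origin.

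Lfng, the fringe enzyme, had the largest fall of the 9 tested genes. It stood at 41.0, 30.0 and 56.2 CPM in hepCLiP 2D and at 1.17, 1.21 and 0.973 CPM in hepCLiP 3D (16, 17 and 14 counts). In bilCLiPs it stood at 30.5, 12.9 and 33.6 CPM in 2D and at 1.65, 0.344 and 3.25 CPM in 3D (25, 6 and 56 counts). The 3 hepCLiP spheroid libraries were nearly alike, whereas the bilCLiP spheroid libraries differed among themselves, and no spheroid library reached a 2D library. The fall was 37.7-fold in hepCLiPs (log2 fold change -5.24 ± 0.67 SE, edgeR adjusted p = 0.00035) and 14.7-fold in bilCLiPs (-3.87 ± 0.62 SE, edgeR adjusted p = 0.00129). Without bilCLiP 3D replicate 3, the highest spheroid library, the bilCLiP value was -4.70.

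The targets fell with it. Hes1, a repressor that is the most widely used readout of Notch activity, had 81.7, 120 and 145 CPM in hepCLiP 2D and 21.8, 27.2 and 36.5 CPM in hepCLiP 3D. In bilCLiPs Hes1 had 119, 101 and 124 CPM in 2D and 45.2, 29.6 and 41.7 CPM in 3D. All 6 spheroid libraries were lower than all 6 flat libraries. The log2 fold change was -2.01 ± 0.26 SE in hepCLiPs (4.04-fold lower, edgeR adjusted p = 0.000312) and -1.56 ± 0.25 SE in bilCLiPs (2.95-fold lower, edgeR adjusted p = 0.00125). The pairs were close to each other, with log2 ratios of -1.90, -2.13 and -1.99 in hepCLiPs and -1.40, -1.77 and -1.57 in bilCLiPs. Per kilobase Hes1 had the highest level of the 10 genes in each group, with means of 56.6, 14.0, 56.2 and 19.0 CPM per kb in the order given above.

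Hey1, a repressor related to Hes1, was read from few counts. It had 2.27, 1.32 and 2.80 CPM in hepCLiP 2D (49, 29 and 56 counts) and 0.147, 0.142 and 0.625 CPM in hepCLiP 3D (2, 2 and 9 counts). In bilCLiPs it had 1.34, 2.14 and 2.69 CPM in 2D (31, 55 and 59 counts) and 0.593, 0.344 and 0.464 CPM in 3D (9, 6 and 8 counts). The groups did not overlap. The log2 fold change was -2.77 ± 0.60 SE in hepCLiPs (edgeR adjusted p = 0.00521) and -2.13 ± 0.57 SE in bilCLiPs (edgeR adjusted p = 0.0171). Without hepCLiP 3D replicate 3, which held 9 of the spheroid counts, the hepCLiP value was -3.82. The bilCLiP call was lost without bilCLiP 2D replicate 3 (-1.89, edgeR adjusted p = 0.0558), 3D replicate 2 (-1.95, edgeR adjusted p = 0.0703) or 3D replicate 3 (-2.12, edgeR adjusted p = 0.0568). Heyl, the third of the listed targets, was at or under the level of 3 counts in every library, so no fold is given.

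**Figure D4:**
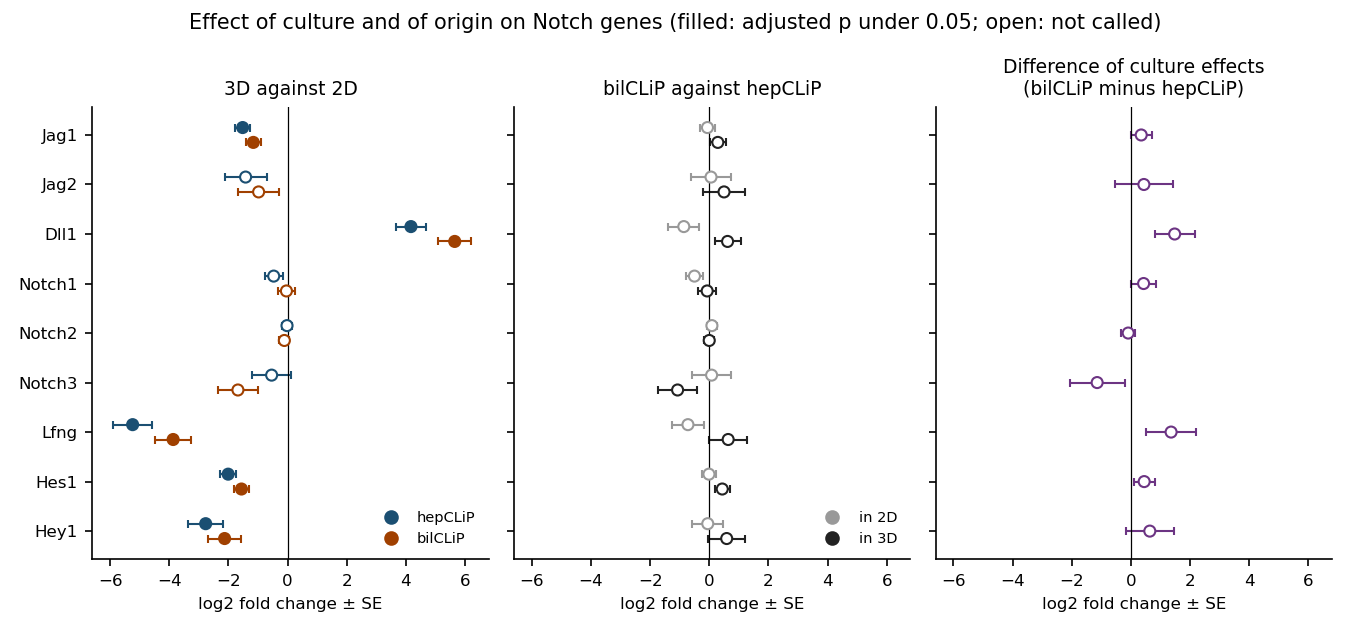
Log2 fold changes with SE (edgeR) of the 9 tested Notch genes for 3D against 2D in each origin, for bilCLiP against hepCLiP in each culture, and for the difference between the culture effects (bilCLiP minus hepCLiP); filled points were called. The culture effects run from -5.24 for Lfng to 5.65 for Dll1, and no origin effect and no difference was called.

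Lfng, Jag1 and Dll1 are the enzyme, the falling ligand and the rising ligand, and their promoter windows are shown because RBPJ and the Hes and Hey repressors act through short DNA motifs. Each window runs from 250 bases before to 50 after a RefSeq transcript start (build GRCm38.p6) and is written along the strand of the gene. Capitals mark the RBPJ core TGGGAA (or TTCCCA on the other strand) and the class C site CACGCG (or CGCGTG on the other strand), which Hes and Hey proteins can bind. The windows are chr5:140607091-140607390 (plus strand) for Lfng, chr2:137116471-137116770 (minus strand) for Jag1 and chr17:15376883-15377182 (minus strand), the upstream of a pair of start sites, for Dll1.
Lfng: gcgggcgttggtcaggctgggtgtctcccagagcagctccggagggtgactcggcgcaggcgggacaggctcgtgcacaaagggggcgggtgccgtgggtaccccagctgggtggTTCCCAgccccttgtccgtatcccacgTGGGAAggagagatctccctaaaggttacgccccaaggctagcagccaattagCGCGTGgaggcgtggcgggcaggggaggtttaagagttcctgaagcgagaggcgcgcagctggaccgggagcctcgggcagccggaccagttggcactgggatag
Jag1: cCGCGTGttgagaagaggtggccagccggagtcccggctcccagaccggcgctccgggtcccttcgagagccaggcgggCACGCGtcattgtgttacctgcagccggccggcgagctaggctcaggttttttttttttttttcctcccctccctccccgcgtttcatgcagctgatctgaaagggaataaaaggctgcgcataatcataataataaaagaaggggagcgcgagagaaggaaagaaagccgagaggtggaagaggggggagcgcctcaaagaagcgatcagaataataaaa
Dll1: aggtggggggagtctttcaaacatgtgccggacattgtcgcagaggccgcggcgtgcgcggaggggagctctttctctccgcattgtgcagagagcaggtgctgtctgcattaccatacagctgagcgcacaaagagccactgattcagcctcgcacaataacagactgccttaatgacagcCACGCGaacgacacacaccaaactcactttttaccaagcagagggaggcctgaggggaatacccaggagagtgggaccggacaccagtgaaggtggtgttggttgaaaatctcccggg
RefSeq windows were matched by symbol for 7 of the 10 genes, with 8 windows in all, and Hes1, Hey1 and Heyl were not among them. Lfng was the single window of the 8 with an RBPJ core, and it had 2 matches, at 135 and 108 bases before the start. The core occurs in 25.6% of the 32851 RefSeq windows of the same length, and its longer form GTGGGAA, which the second Lfng match also has, in 6.38%. That second match overlaps the E-box CACGTG, found in 7.15% of windows. The class C site was found at 2 places in Jag1 (249 and 171 bases before the start), in Lfng (55 before), in this Dll1 window (68 before), in Notch2 (42 before) and in Jag2, and in 9.27% of all windows. The windows of the Notch genes hold 55.7 to 86% G and C, against a median of 52.7% over all windows, so for a motif this rich in G and C the shares are not like for like. The N-box CACNAG, another Hes site, was matched in Notch1, Notch2, Notch3, Lfng and this Dll1 window, and in 42.5% of all windows. Matches describe the letters of these windows and do not show binding.

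No Notch gene passed the test between origins. None of the 9 was called between bilCLiPs and hepCLiPs in 2D, where 0.135% of all tested genes were called, or in 3D, where 0.101% were. DESeq2 called 0 of the 9 in either culture as well, and 0 of the 9 had an unadjusted edgeR p under 0.05. In 3D, Dll1 was higher in each bilCLiP library (31.3 to 43.9 CPM) than in each hepCLiP library (16.3 to 29.2 CPM), but the difference did not pass the test (log2 0.62 ± 0.44 SE, edgeR adjusted p = 0.501). The Hes1 difference in 3D was 0.44 ± 0.25 SE (edgeR adjusted p = 0.387), with overlapping groups. In 2D, the estimates ran from -0.86 ± 0.52 SE for Dll1, -0.72 ± 0.54 for Lfng and -0.50 ± 0.30 for Notch1 to 0.09 ± 0.17 for Notch2 on the log2 scale. In 3D, they ran from -1.07 ± 0.67 SE for Notch3 to 0.64 ± 0.64 for Lfng, so differences of that size are not shown to be absent.

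Whether the response to 3D culture depended on origin was tested as the difference between the culture effects. No gene of the 14798 was called by edgeR (0%), with 532 at an unadjusted p under 0.05, and DESeq2 called 12, none of them a Notch gene of the 10. For Dll1 the bilCLiP effect exceeded the hepCLiP effect by 1.48 ± 0.68 SE on the log2 scale (edgeR adjusted p = 1, from an unadjusted value of 0.0542). For Lfng the difference was 1.36 ± 0.84 SE and for Hes1 0.45 ± 0.35 SE (edgeR adjusted p = 1 for both). These errors leave room for sizeable differences, so the tests do not show that the origins respond alike.

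Markers of other cell types were read in the same libraries. The 8 endothelial markers summed to 0.132 to 3.75 CPM over all libraries. Emcn was at 0 in every library, and Pecam1 and Cdh5 were at or under 0.301 CPM. Kdr was not near 0 in bilCLiP 2D, at 3.19, 1.94 and 2.78 CPM. It was called lower in bilCLiP 3D (log2 fold change -4.94 ± 0.95 SE, edgeR adjusted p = 0.00311). In hepCLiPs Kdr was not called, with means of 0.553 CPM in 2D and 0.0944 in 3D. The Kdr mean in bilCLiP 2D, 2.64 CPM, was close to that of Hey1 there, 2.05 CPM. The 4 mesothelial markers summed to 333 to 989 CPM in hepCLiP 2D and 546 to 867 in bilCLiP 2D, against 5.57 to 25.8 and 7.97 to 27.8 CPM in 3D. Nearly all of this was Msln, since Upk3b, Wt1 and Lrrn4 were at or under 0.364 CPM in every library of either culture. The 12 mural, stellate and fibroblast markers summed to 1.68 to 11.6 CPM in hepCLiP 2D, 7.51 to 301 in hepCLiP 3D, 3.85 to 7.93 in bilCLiP 2D and 27.8 to 50.2 in bilCLiP 3D. The top value belonged to hepCLiP 3D replicate 1, where Dcn stood at 282 CPM. In bilCLiP 3D the sum came mostly from Dcn, Reln and Rgs5, with means of 10.4, 18.3 and 8.24 CPM. The other markers of this list, Pdgfrb, Acta2 and Col1a1 among them, had means at or under 0.694 CPM in all 4 groups. The 6 macrophage and leukocyte markers summed to 4.13 to 19.5 CPM, with Cd3e at 0 in every library. Nearly all of this was Csf1r and Cd68, whose means moved in opposite directions, though neither was called. Csf1r had 3.22 CPM in hepCLiP 2D and 9.06 in hepCLiP 3D, and 3.72 and 11.5 CPM in bilCLiPs. Cd68 had 4.33 CPM in hepCLiP 2D and 1.76 in hepCLiP 3D, and 4.23 and 2.11 CPM in bilCLiPs. The part of Kdr, Msln, Csf1r, Cd68 and the mural markers in the Notch changes was not tested. Leaving out each library in turn, hepCLiP 3D replicate 1 included, the 5 hepCLiP calls all held, and 4 of the 5 bilCLiP calls did, Hey1 being the exception.

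Other genes of the pathway were counted from lists by role, which together hold 80 genes, 67 of them tested. In hepCLiPs 15 were called higher (22.4%) and 19 lower (28.4%), and in bilCLiPs 8 (11.9%) and 11 (16.4%). The hepCLiP shares were above the background shares given above, and the bilCLiP shares lay near them. These lists, too, were chosen with earlier results of these data known, so the shares are a description. Many of these calls depended on single libraries. Of the 26 genes that could be named by rule, 26 were called in hepCLiPs, and 16 of those calls held without each library in turn. In bilCLiPs 18 were called and 10 held. The rule takes called genes with the largest changes, so how many were called follows largely from that choice. The numbers do not compare the origins. The lower count in bilCLiPs was 20 with the replicate block, against 11 without it. The hepCLiP higher count, 16 with Kyat1, was 9, 10 and 7 without hepCLiP 2D replicates 1, 2 and 3, and without bilCLiP 3D replicate 2 the bilCLiP counts were 5 higher and 7 lower. The named genes below are, unless a loss is given, ones whose calls held without each library. Counts by role below stand beside 17.9% of all tested genes called lower and 16.9% higher in hepCLiPs. In bilCLiPs these shares were 14.5% and 15.8%. Each role holds few tested genes, so its counts are a description.

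Among the ligands and receptors outside the 10, Dll3 and Dll4 were too low to be tested and Notch4 was not called. Of 2 tested non-canonical ligands, Dlk2, a Delta-like protein reported to inhibit Notch, fell from 23.9 to 1.66 CPM in hepCLiPs (log2 fold change -3.85 ± 0.78 SE) and from 11.5 to 1.18 CPM in bilCLiPs (-3.27 ± 0.77 SE). Of 6 tested fringe and glycosylation genes, 1 rose and 2 fell in hepCLiPs, and 1 rose and 0 fell in bilCLiPs. Xxylt1, a xylosyltransferase acting on Notch repeats, fell in hepCLiPs (-1.12 ± 0.26 SE), and in bilCLiPs, where it was not called, it was called with the replicate block (-0.75, edgeR adjusted p = 0.0275). The fall of Lfng was thus not shared by its relative Rfng, which had 10.7 CPM in hepCLiP 2D and 17.5 in 3D, and 7.81 and 13.9 CPM in bilCLiPs.

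Rfng was called higher in both origins (0.71 ± 0.23 SE, edgeR adjusted p = 0.0337, and 0.83 ± 0.23 SE, edgeR adjusted p = 0.019). Its hepCLiP call was lost without any one of hepCLiP 2D replicates 1, 2 and 3 (edgeR adjusted p = 0.0596, 0.108 and 0.0594) or 3D replicates 1 and 2 (0.0826 and 0.0653). Its bilCLiP call was lost without bilCLiP 2D replicates 2 and 3 (0.0628 and 0.0658) or 3D replicates 1 and 2 (0.0646 and 0.0501), and both calls were lost with total-count scaling (0.13, edgeR adjusted p = 0.673, and 0.36, edgeR adjusted p = 0.244).

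Of 9 tested genes of the proteases that cut the receptor, further gamma-secretase subunits included, 3 rose and 1 fell in each origin. In bilCLiPs Psen2 alone of these kept its call without each library in turn. Psen2, a catalytic subunit of gamma-secretase, rose from 12.7 to 34.8 CPM in hepCLiPs (1.45 ± 0.34 SE) and from 8.79 to 26.9 CPM in bilCLiPs (1.61 ± 0.34 SE), though with total-count scaling the hepCLiP value was 0.88 (edgeR adjusted p = 0.0557). Adam17, a sheddase, fell in hepCLiPs from 70.0 to 44.4 CPM (-0.66 ± 0.15 SE). Of 14 tested genes of ligand and receptor endocytosis and turnover, 6 rose and 3 fell in hepCLiPs, and 1 rose and 1 fell in bilCLiPs. Mib2, a ubiquitin ligase that acts on Notch ligands, rose (1.49 ± 0.17 SE in hepCLiPs and 1.08 ± 0.17 SE in bilCLiPs), and Epn2, an epsin of clathrin-coated pits, fell (-2.03 ± 0.26 SE and -2.11 ± 0.26 SE).

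Of 9 tested members of the nuclear complex, 1 rose and 2 fell in hepCLiPs, and 0 rose and 2 fell in bilCLiPs. Rbpj itself was not called, with 39.8 ± 15.4 CPM in hepCLiP 2D and 28 ± 6.71 in hepCLiP 3D, and 25.0 ± 2.56 and 20.8 ± 1.96 CPM in bilCLiPs (SD, n = 3). The coactivator Maml2 fell from 17.2 to 2.68 CPM in hepCLiPs (-2.68 ± 0.55 SE). In bilCLiPs Maml2 went from 17.9 to 4.57 CPM (-1.97 ± 0.53 SE, edgeR adjusted p = 0.0169), a call lost without bilCLiP 2D replicate 1 (-1.29, edgeR adjusted p = 0.0693), 3D replicate 2 (-1.69, 0.0667) or 3D replicate 3 (-1.74, 0.0652). Of 12 corepressors of RBPJ, 1 rose and 2 fell in hepCLiPs, and 1 rose and 1 fell in bilCLiPs. Among them Spen, a scaffold for corepressors, fell in both origins (-0.84 ± 0.20 SE and -0.86 ± 0.20 SE).

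Of 6 further targets that were tested, 4 fell in hepCLiPs and 3 in bilCLiPs, and 0 rose. Among all tested genes, 17.9% were called lower in hepCLiPs and 14.5% in bilCLiPs. Id1, Id2 and Id3, inhibitors of helix-loop-helix factors that also respond to BMP signals, accounted for 3 of these in each origin. Id3 fell from 210 to 5.13 CPM in hepCLiPs (-5.36 ± 0.83 SE) and from 191 to 1.99 CPM in bilCLiPs (-6.57 ± 0.89 SE). Id1 (-2.62 ± 0.46 SE and -2.84 ± 0.47 SE) and Id2 (-1.81 ± 0.30 SE and -1.34 ± 0.30 SE) changed less. Nrarp, a feedback inhibitor induced by Notch, had 3.14 ± 1.05 CPM in hepCLiP 2D and 0.837 ± 0.418 in hepCLiP 3D, and 2.62 ± 0.893 and 0.943 ± 0.579 CPM in bilCLiPs (SD, n = 3).

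Nrarp was called lower in hepCLiPs (-1.90 ± 0.58 SE, edgeR adjusted p = 0.0268) but not without hepCLiP 2D replicates 2 or 3 (edgeR adjusted p = 0.0824 and 0.0582) or 3D replicates 2 or 3 (0.0917 and 0.0844). In bilCLiPs it was not called (-1.47 ± 0.57 SE, edgeR adjusted p = 0.0748), but was with the replicate block (-1.58, edgeR adjusted p = 0.0375). Hes5 had 0 counts in all 12 libraries, and Hey2, Hes2, Hes3 and Hes7 were too low to be tested.

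Of 8 biliary genes linked to Notch in the liver, 3 rose and 4 fell in hepCLiPs, and 2 rose and 2 fell in bilCLiPs. Krt19, a bile duct keratin, fell from 860 to 8.74 CPM in hepCLiPs (-6.62 ± 1.10 SE) and from 694 to 5.32 CPM in bilCLiPs (-7.02 ± 1.12 SE). Spp1, a secreted protein of bile ducts, rose from 2690 to 13700 CPM in hepCLiPs (2.35 ± 0.50 SE) and from 6230 to 24800 CPM in bilCLiPs (1.99 ± 0.49 SE). Sox9, a biliary transcription factor, was not called, with means of 82.4 and 82.2 CPM in hepCLiPs and 112 and 104 CPM in bilCLiPs. The biliary genes thus moved in both directions.

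**Figure D5:**
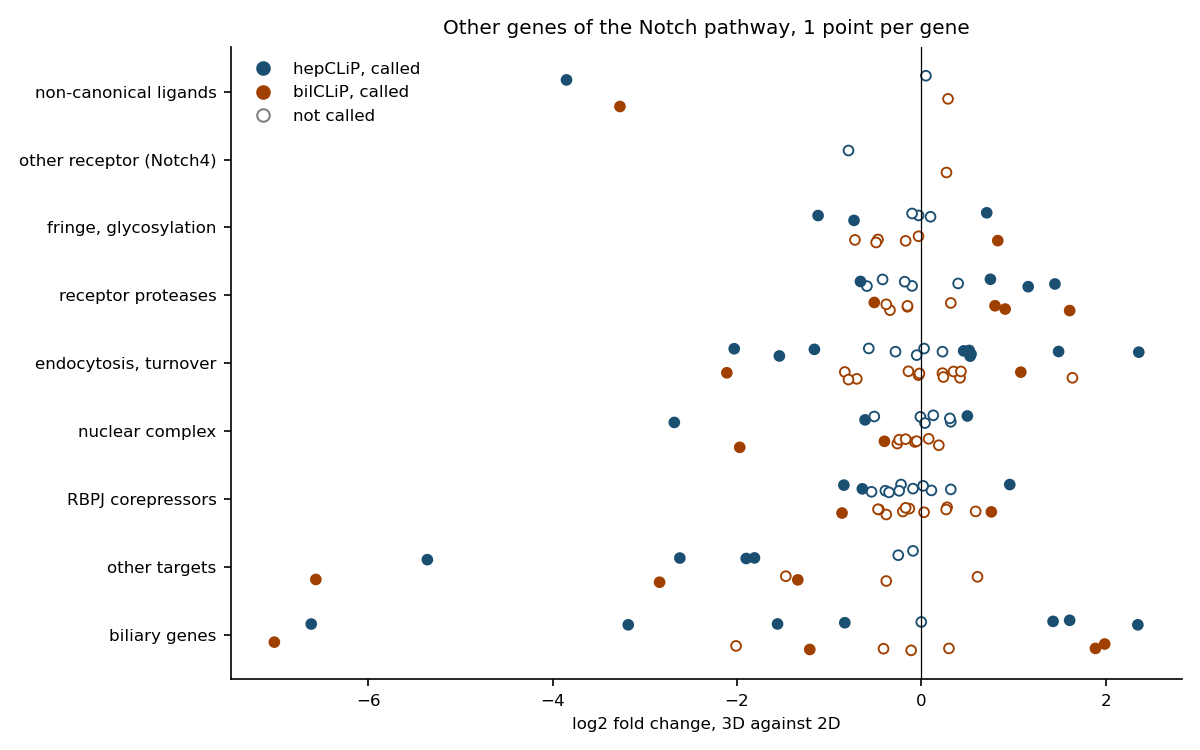
Log2 fold changes (edgeR, 3D against 2D) of the tested pathway genes outside the 10, without Kyat1, with 1 point per gene and origin, by role; filled points were called and open points were not. The far left points are Id3 (-5.36 in hepCLiPs and -6.57 in bilCLiPs) and Krt19 (-6.62 and -7.02), and most points of the receptor proteases, the nuclear complex and the corepressors lie near 0.

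The genes whose levels ran most like a Notch gene across the 12 libraries were found by the root mean square distance between centred log2(CPM + 1) values, over 11785 genes, and are listed as a description. This scale compresses low genes such as Hey1. The nearest to Notch2 was Zfr (0.108), to Hes1 Actn1 (0.142), to Jag1 Kirrel (0.161) and to Hey1 Arhgap1 (0.164). The nearest to Notch3 was Hhipl1 (0.296), to Lfng Epn3 (0.306) and to Jag2 Tpbg (0.401). Dll1 lay closest to Rdh9 (0.354) and Cyp3a59 (0.424), a retinol dehydrogenase family gene and a cytochrome P450 gene. The second nearest genes were Epc1 for Notch2, Cdca7 for Hes1, Iffo2 for Jag1, Jpt1 for Hey1, Tbc1d4 for Notch3, Loxl2 for Lfng and G6pdx for Jag2. The points share libraries and a common culture effect, so nearness here mostly compares the 4 group means. With total-count scaling the nearest gene was the same for 8 of the 9, Hey1 then lying nearest to Aldh3a2.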

How the data were processed

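RNA-seq of 12 mouse cell cultures was analysed from the authors' deposited table of raw gene counts. The tools were STAR 2.7.10b, featureCounts 2.0.1 and DESeq2, and the build was GRCm39, per the submitters' processing notes. How strand was treated, and which annotation was used, is not given in the sources used here. The authors also deposited a normalized table (unit signal), whose values equal the counts divided by a constant per library within a relative tolerance of 0.001; it entered 1 alternative. Counts were tested in R 4.3.3 with edgeR 4.0.16 (filterByExpr, TMM, robust quasi-likelihood fit of 4 group means over 12 samples). The Benjamini-Hochberg adjustment ran over 14798 genes. The fit was tried on simulated counts with changes in hepCLiP 3D alone, balanced in direction. These had no shift between cultures in the make-up of the RNA, so the trial did not check the scaling. Each SE is the absolute log2 fold change over the square root of F. CPM are counts over TMM effective library sizes. Alternatives used RLE scaling, DESeq2 1.42.0, limma 3.58.1 on the normalized table, no filter, only the groups compared, the reporter genotype, the replicate block, total-count scaling and each library left out.

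The Notch genes and pathway lists were chosen with earlier results of these data known. Named were all 10 Notch genes, up to 4 called genes per list with the largest changes, the 2 nearest patterns per gene and the markers; members that were not called or not tested are named as such. The nearest patterns of Notch1 are not reported here. Kyat1 had been put among the RBPJ corepressors in error (it is a kynurenine aminotransferase) and was left out of the counts, except where given. Exon lengths and overlaps come from GENCODE M21, and promoter windows from RefSeq. Same-numbered 2D and 3D libraries of an origin deviated together from their group means (correlations of 0.497 to 0.508 for hepCLiPs and 0.429 to 0.523 for bilCLiPs). The numbers were therefore taken to pair the libraries, which comes from the data, not from the labels. Correlations for other numbers were at most -0.0334. Deviations cancel out within each group, so positive same-number values push the others below 0, and these add no separate support. Counts per library limit the precision, and 3 counts, the limit that a count of 0 allows, cover counting error only.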

Additional observations from a re-analysis of the deposited data

How the results depend on the processing

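Across all alternatives, the 9 tested Notch genes kept their side of the threshold in 854 of the results computed, gained a call in 14 and lost one in 3, and no called value reversed. The 854 include the contrasts between origins and the difference between culture effects, where there was no call to lose. All 3 losses were Hey1 in bilCLiPs, and the gains were Jag2, Notch1, Notch2 and Notch3 in the culture contrasts. The replicate block changed the calls of Jag2 in both origins and Notch3 in bilCLiPs and no other call of a Notch gene; it could not be estimated for the contrasts between origins, where it was not run. Total-count scaling, added after seeing the data, moved the counts of the culture contrasts most: 7915 genes called in hepCLiPs against 5139, and 6763 in bilCLiPs against 4485. Under it the Notch genes called lower in hepCLiPs came to 7, the other pathway genes called lower to 39 and 35, and those called higher to 4 and 5, and Kat2b in hepCLiPs reversed from 0.50 to -0.09. Among the other pathway genes (Kyat1 included), those higher in hepCLiPs were 10 with only the groups compared, against 16, and those lower in bilCLiPs were 20 with the replicate block, against 11. Leaving out 1 library, the higher count in hepCLiPs ran from 7 to 17, and in bilCLiPs the lower count ran from 7 to 13 and the higher count from 5 to 10. Genes called between origins in 2D, 20 by edgeR, were 459 by DESeq2, 5 with only the groups compared, 39 by limma on the normalized table and 6 (without bilCLiP 2D replicate 3) to 31 (without hepCLiP 2D replicate 2) with 1 library left out. In 3D, 15 by edgeR became 577, 3, 26 and 3 (without hepCLiP 3D replicate 1) to 251 (without hepCLiP 3D replicate 3). Of the other pathway genes, DESeq2 called 1 lower and 1 higher between origins in 2D, and 4 lower and 1 higher in 3D; with 1 library left out 0 to 3 were lower in 3D, the 3 without hepCLiP 3D replicate 3. The difference between culture effects gave 12 genes by DESeq2 and 0 to 3 with 1 library left out, the 3 without hepCLiP 2D replicate 2. The cause of these shifts was not tested. Depth limits Hey1 and Heyl most, since Hey1 rests on 2 to 9 counts per spheroid library.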

Other observations

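Dtx1, which encodes the Notch regulator Deltex, was chosen after its values were seen and did not have enough counts to be tested. No hepCLiP 2D library had a count of it, and the hepCLiP spheroids had 14, 7 and 5. BilCLiPs had 2, 0 and 0 counts in 2D and 4, 7 and 9 as spheroids. The spheroid libraries of both origins were higher than the 2D libraries, at 0.263 to 1.03 CPM against at most 0.0861 CPM. Dlk1, a Delta-like protein of the fetal liver, was also chosen after its values were seen: hepCLiPs had 12, 0 and 23 counts in 2D and 0, 1 and 0 as spheroids, and bilCLiPs had 0 in each 2D library and 6, 0 and 0 as spheroids.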
